A study of Arabidopsis thaliana with 24 samples.

Results

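Shoots of Arabidopsis thaliana were compared 3 h after transfer to medium without phosphate (-P) with shoots transferred at the same time to medium with phosphate (+P), over wild type and a mutant together. The comparison took the 12 arrays of the 24 in the study that were made at 3 h. The 6 arrays on -P were matched with the 6 on +P by genotype and replicate number, which gave 6 pairs, 3 from each genotype. Wild type (WT) was Columbia-0, and pnp1-1 is a null mutant of PNP1 in the same background, the chloroplast polynucleotide phosphorylase, an enzyme that degrades and trims plastid RNA. Seedlings of both genotypes were 2 weeks old at transfer. Until then they had grown in a 16 h photoperiod at 22 °C, on MS medium that held all nutrients and 0.5% sucrose, and they were rinsed with water before the move. In the -P medium KH2PO4 was left out and its potassium was replaced by K2SO4, so sulfate supply differed between the media as well. Roots were removed before RNA extraction, and each of the 4 groups at 3 h had 3 replicates. The labels call these biological replicates of at least 4 seedlings each but do not say whether they came from separate sowings, so p-values measure only the spread between these samples. The 12 arrays made after 1 week are used here only to ask what later responders were doing at 3 h.

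Plants sense phosphate both locally, at the root tip, and systemically, through the phosphate status of the whole plant. In shoots the systemic pathway turns on MYB-type regulators of the PHR1 family, which raise transporters, phosphatases and enzymes that replace phospholipids with phosphate-free lipids once cellular phosphate runs low. Cells can first draw on phosphate stored in the vacuole.

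Intensities were read on a log2 scale for 22746 probe sets, and those with a mean under 16, near background, were kept in the fits and marked where they matter. The 3 h arrays were alike in scale, with mean intensities of 463 to 496 and 40.4% to 41.3% of probe sets under 16. A gene name was found for 13513 probe sets, so leading loci are often given by locus alone. PNP1 itself and well-known starvation markers such as SPX1, SPX3, PAP17, SQD1, SQD2 and PHT1;4 have no named probe set in the annotation used and are not analysed here. Of the leaf markers on the list, 1 of 8 had a named probe set. RCA, the activase of the carbon-fixing enzyme Rubisco, had intensities of 23207 to 28463 on +P and 22954 to 26497 on -P. Of the root markers, 2 of 8 had one. EXPA7, a root hair expansin, read 3.4 or 3.5 on all 12 arrays. PYK10, a beta-glucosidase best known from roots, read 1007, 1633 and 1484 on +P and 852.0, 1270.5 and 1156 on -P in WT, lower on -P in all 3 pairs. In pnp1-1 it read 3372, 7703 and 3976 on +P and 3994, 6499 and 6901 on -P, higher in 2 of 3 pairs. The leaf marker was thus bright and the root hair marker at background, while PYK10 was present on every array. None of the 3 differed between media in the test, and the part of root-type transcripts in other values was not tested. In bulk tissue, fewer cells of a type and less RNA per cell cannot be told apart.

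Removing phosphate for 3 h gave no transcript difference that passed the test over both genotypes. With limma's paired fit, 0 of 22746 probe sets (0%) had a Benjamini-Hochberg adjusted p under 0.05, and the smallest adjusted p was 0.909. At an unadjusted p under 0.05 there were 961 probe sets (4.22%). Most transcripts were measured closely enough to bound the response averaged over both genotypes, though not that of either one alone. Among the 13529 probe sets with a mean intensity of at least 16, the median size of the difference was 0.09 on the log2 scale, and the median half-width of its 95% interval was 0.27. For 93.1% of them the whole interval lay within 2-fold in either direction. The bound was loosest for dim transcripts, with 86.6% inside it between 16 and 64, and tightest for the brightest class, with 96.7%.

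All 6 pairs were higher on -P for 175 of all probe sets (0.769%) and lower for 238 (1.05%). Among the 13529 of at least 16 these counts were 157 (1.16%) and 205 (1.52%). The 12 genes of lowest p in each direction were taken from these and are described as leaders that did not pass the test. The 12 that were higher differed by 0.18 to 1.28 on the log2 scale, with adjusted p of 0.909 to 0.974. The 12 that were lower had differences of -0.64 to -0.15, each with an adjusted p of 0.974. Most of these differences were small and were picked for having 1 sign in all pairs.

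The largest of them was at AT4G12500. In WT it read 11.9, 42.9 and 35.5 on +P and 36.8, 145.4 and 80.5 on -P. In pnp1-1 it read 116.2, 591.9 and 243.2 on +P and 295.1, 1686.3 and 288.6 on -P. Every pair was higher on -P although the groups overlapped, since replicates differed in level and pnp1-1 was higher than WT on both media. The pooled difference was 1.28 ± 0.20 (SE, n = 6 pairs; 95% interval 0.79 to 1.77; limma adjusted p = 0.974). After 1 week, on other arrays, it had risen by 0.91 ± 0.21 (adjusted p = 0.0328).

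AT1G53070 was next in size among those higher. It read 37.0, 37.0 and 62.5 on +P and 55.0, 59.4 and 72.0 on -P in WT. In pnp1-1 it went from 27.8, 36.9 and 67.5 on +P to 44.4, 48.7 and 140.5 on -P. Groups overlapped here too, and the pooled difference was 0.60 ± 0.11 (SE, n = 6 pairs; adjusted p = 0.974). UBP20, a ubiquitin-specific protease that removes ubiquitin from proteins, was the only one of the 12 with a symbol, at 0.38 ± 0.07 (adjusted p = 0.974). Its intensities ran from 18.4 to 28.6 on +P and from 25.7 to 42.6 on -P. The 2 genes of lowest p, AT1G36390 and AT2G41950, differed by only 0.23 ± 0.03 and 0.18 ± 0.03.

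Among genes that were lower, AT3G19620 had the largest difference. It read 93.5, 79.0 and 87.9 on +P and 51.5, 49.0 and 44.8 on -P in WT, where the media did not overlap. In pnp1-1 it read 21.7, 21.3 and 28.6 on +P and from 16.0 to 18.4 on -P, again without overlap but close to background. The pooled difference was -0.64 ± 0.10 (SE, n = 6 pairs; 95% interval -0.89 to -0.38; adjusted p = 0.974). AT1G15830 followed with -0.60 ± 0.13 and AT1G01240 with -0.52 ± 0.11 (adjusted p = 0.974 for both). The levels of AT1G01240 spread widely over replicates, from 58.0 to 353.3 on +P and from 42.5 to 185.3 on -P.

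The 1 week arrays, which the choice of leaders did not use, gave another reading of them. Of the 12 that were higher at 3 h, 6 were higher and 6 lower at 1 week. AT4G12500 had risen there, and AT2G41950 had fallen by 0.39 ± 0.09 (adjusted p = 0.0326), the opposite of its sign at 3 h. Of the 12 that were lower at 3 h, 10 were lower at 1 week, and 2 had fallen in the test, AT1G12120 (-0.39) and AT5G16810 (-0.56). Over all probe sets with a mean of at least 16, 36.4% were higher at 1 week, 4.87% were called higher and 5.37% called lower. The time difference passed the test for none of the 24 leaders, with adjusted p of at least 0.0694.

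**Figure D1:**
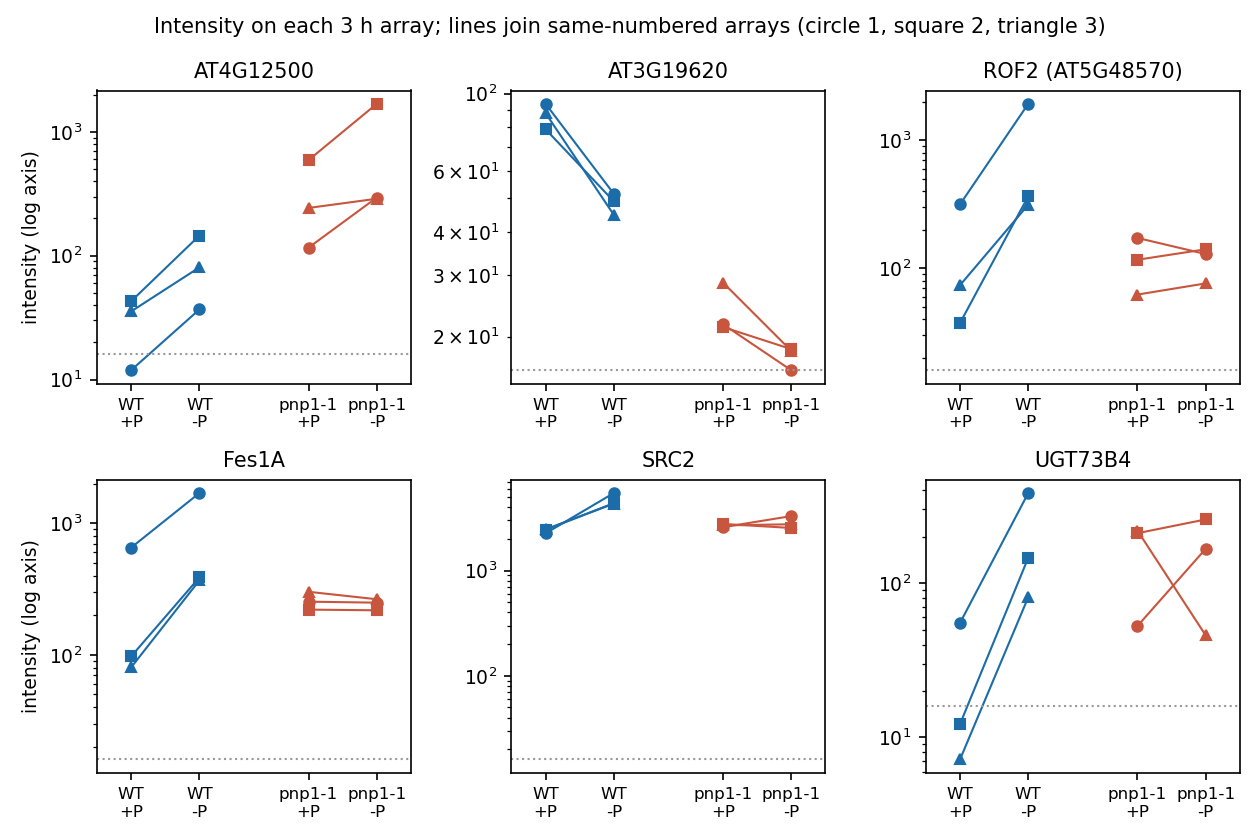
Intensity (log axis) of 6 transcripts on each of the 12 arrays at 3 h, WT in blue and pnp1-1 in red. Lines join same-numbered arrays on +P and -P, and the dotted line marks an intensity of 16. AT4G12500 and AT3G19620 differed in 1 direction in all 6 pairs, while ROF2, Fes1A, SRC2 and UGT73B4 were higher on -P in all 3 WT pairs and not in all pnp1-1 pairs.

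Genes tied to phosphate showed no difference that passed the test. Among 274 genes on 19 lists of phosphate, other nutrient, stress, hormone and tissue genes, 37 probe sets in 13 lists had a name. None of the 37 passed the test in the pooled comparison, in WT, in pnp1-1 or in the genotype difference, and 0 had an unadjusted pooled p under 0.05 against 4.22% of all probe sets. Their median difference was 0.00, against -0.01 over all probe sets. The 6 lists without a named probe set, among them phosphate scavenging enzymes and membrane lipid remodelling, are not analysed here.

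The 11 probe sets of phosphate-linked genes had a median difference of 0.04, with 7 higher and 4 lower. Of all 22746 probe sets, 9319 were higher. For 9 of the 11 the 95% interval lay within 2-fold, against 94.9% of all probe sets. Only 7 of the 11 had a mean of at least 16, and near background a narrow interval bounds little. SIZ1, a SUMO ligase that modifies the starvation regulator PHR1, had 2 probe sets. Its brighter one read 423 to 733 on +P and 464 to 744 on -P, with a difference of 0.04 (95% interval -0.19 to 0.26). LPR1 and LPR2, multicopper oxidases that arrest root growth when phosphate is low, differed by 0.08 (95% interval -0.58 to 0.74) and -0.07 (95% interval -0.40 to 0.26). PAP20, a purple acid phosphatase, and WRKY42, which restrains the phosphate exporter gene PHO1, were under 16 on average and differed by -0.01 and -0.05.

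WRKY6, which also represses PHO1 and is released under phosphate shortage, had the widest split. In WT it read 108.6, 118.1 and 72.8 on +P and 235.4, 340.6 and 109.6 on -P. In pnp1-1 it read 426.8, 441.5 and 251.4 on +P and 322.6, 507.6 and 167.9 on -P. All 3 WT pairs were higher on -P while 2 of 3 mutant pairs were lower, and the media overlapped in both genotypes. The pooled difference was 0.41 ± 0.31 (95% interval -0.33 to 1.15; adjusted p = 0.974). In WT it was 1.08 ± 0.22 (SE, n = 3 pairs; adjusted p = 0.273), and the genotype difference had an adjusted p of 0.359. The SE of a genotype, here and below, rests on a spread shared by the pairs of both genotypes. AT1G69480 was also higher in the pool, by 0.52 (95% interval -0.12 to 1.15), from pnp1-1 alone: every WT array read 4.2 or 4.3, while pnp1-1 went from 4.2, 20.1 and 10.7 to 10.2, 58.5 and 13.2.

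Sulfate was of interest because the -P medium carried more of it. Of 21 listed sulfate genes, 5 had a named probe set, and their median difference was -0.06. APS3 and APS4, ATP sulfurylases that activate sulfate, differed by -0.08 and -0.06, and SIR, sulfite reductase, by 0.06, none passing the test. BGLU28, a glucosidase raised in sulfur-starved plants, had a mean intensity under 16. Its difference of -0.50 came from the first WT pair (-1.43) and the second pnp1-1 pair (-1.62), with the other pairs between -0.09 and 0.16. Both iron genes, BHLH101 and PYE, regulators of iron uptake, were scattered. BHLH101 read 5.0, 78.0 and 160.6 on +P and 4.7, 5.2 and 48.9 on -P in WT, and 44.4, 5.3 and 9.7 against 4.5, 4.8 and 229.8 in pnp1-1. Replicates within a group differed more than the media did. GI, the clock gene GIGANTEA, differed by -0.19 (adjusted p = 0.974).

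The pool of 6 pairs did not hold 6 alike responses. Over the 13529 probe sets, the differences of the 3 WT pairs correlated with each other at r = 0.32 to 0.49. Those of the 3 pnp1-1 pairs correlated at -0.23 to -0.04, and pairs of different genotype at -0.38 to 0.25. The third pnp1-1 pair ran against all 3 WT pairs, at -0.38 to -0.31. These correlations are across probe sets, which are not independent, and they are given as a description. The mean responses of the genotypes had r = -0.17, or 0.10 with that pnp1-1 pair left out.

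**Figure D2:**
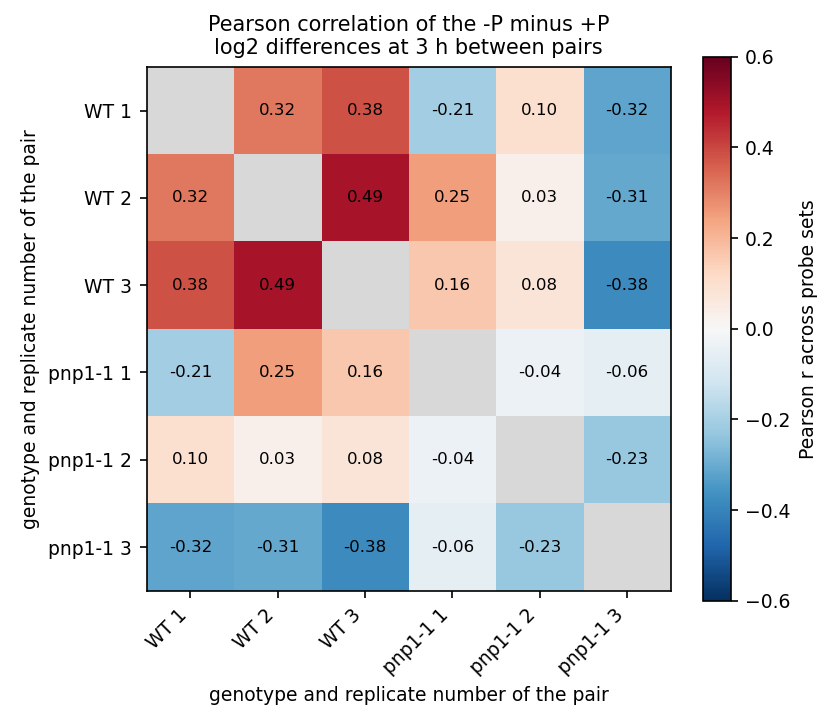
Pearson correlation, across 13529 probe sets, of the -P minus +P log2 differences of each pair with those of each other pair. The 3 WT pairs form a block at 0.32 to 0.49, and the pnp1-1 pairs show no such block.

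In WT alone, 301 probe sets (2.22%) were at least 2-fold higher on -P and 64 (0.473%) at least 2-fold lower, among those with a mean of at least 16. In pnp1-1 these counts were 27 (0.2%) and 14 (0.103%), and over both genotypes 61 (0.451%) and 4 (0.0296%). The mutant's count rose to 69, 223 or 186 without its pair 1, 2 or 3. In pairs 1, 2 and 3 taken singly, 506, 469 and 327 were at least 2-fold higher in WT, and 734, 41 and 325 in pnp1-1. At least 2-fold lower were 354, 108 and 121 in WT, and 211, 205 and 237 in pnp1-1. Single mutant pairs thus held many such differences, and the mean over its 3 pairs kept few of them. Where WT was at least 2-fold higher, its median was 1.35 and that of pnp1-1 was -0.06. Of the 365 WT probe sets, which were picked on WT values, 204 had the opposite sign in pnp1-1. Only 5 were at least 2-fold different in the same direction. The share of opposite signs over all probe sets was not counted. Over those of at least 16 the mean responses of the genotypes had r = -0.17, which does not give that share. Whether opposite signs are particular to the 365 was thus not tested.

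None of these differences passed the test in the fit used here. Limma called 0 probe sets in WT (0%), with a smallest adjusted p of 0.0646 and 2286 (10.1%) at an unadjusted p under 0.05. It called 0 in pnp1-1 (0%), with 1212 (5.33%) at an unadjusted p under 0.05, and 0 for the difference between genotypes (0%), with 2279 (10%). The smallest adjusted p values were 0.684 and 0.280. The WT count was 0 to 9 under other settings, and 17 probe sets were called in at least 1 of 10 settings. A signal of RNA quality moved with the same split. The 3' over 5' ratio of the actin control was lower on -P in all 3 WT pairs, by 0.27, 0.23 and 0.23 on the log2 scale. In pnp1-1 it differed by 0.21, -0.05 and 0.17. For GAPDH the WT pairs gave -0.50, -0.05 and -0.24 and the pnp1-1 pairs 0.08, 0.00 and 0.35. Over 6 pairs neither ratio differed between media (exact sign-flip test, two-sided, p = 0.406 for actin and 0.688 for GAPDH, n = 6, smallest p possible 0.0313). Opposite shifts of the genotypes cancel in that test, so it does not bear on the shift within WT. PYK10 split in the same way, at -0.32 ± 0.19 in WT and 0.26 ± 0.19 in pnp1-1 (adjusted p = 0.557 for the difference). The part of either in the WT values was not tested.

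**Figure D3:**
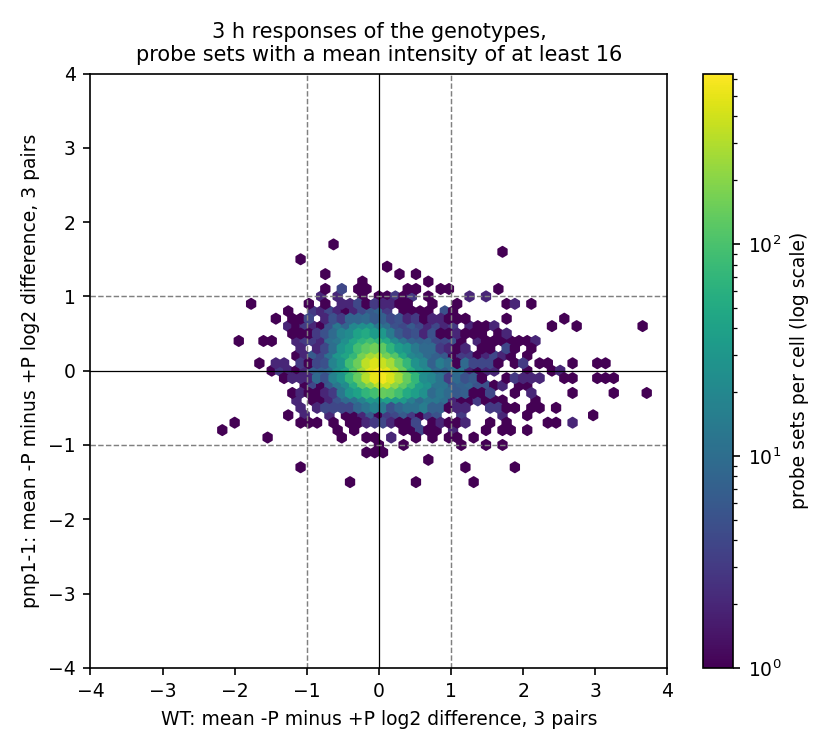
Mean -P minus +P log2 difference over the 3 pairs of WT (horizontal axis) and of pnp1-1 (vertical axis) for 13529 probe sets, coloured by the number of probe sets per cell on a log scale. Dashed lines mark 2-fold, and the spread beyond them lies mainly along the WT axis, to the right.

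Several chaperones had large differences in WT. Chaperones keep other proteins folded, and many are induced by heat. Of 18 named chaperone and co-chaperone probe sets, 16 had a mean of at least 16. Of the 18, 14 were higher on -P in WT and 8 in pnp1-1, against 8489 and 10232 of all 22746 probe sets. In all 3 WT pairs 8 of the 18 were higher, against 3293 of all 22746 probe sets and 22.7% of those of at least 16. The list had medians of 0.24 and 0.00, against -0.02 and 0.00 for all probe sets. This group was drawn up after WT values had been seen, and 0 of its members passed the test in either genotype. ROF2 (the RefSeq synonym of AT5G48570), an FKBP-type prolyl isomerase of heat acclimation, read 316.4, 37.4 and 73.9 on +P and 1933.9, 366.8 and 314.3 on -P in WT. In pnp1-1 it read 173.0, 116.8 and 62.4 on +P and 129.4, 141.0 and 76.3 on -P. The WT pairs were apart by 2.61, 3.29 and 2.09 on the log2 scale, and the mutant pairs lay on both sides of 0. The WT difference was 2.66 ± 0.26 (SE, n = 3 pairs; adjusted p = 0.149), with adjusted p of 0.0292 to 0.946 over the other settings. That SE comes from a spread shared with the pnp1-1 pairs, so it is not the spread of the 3 WT pairs alone. The genotype difference had an adjusted p of 0.282.

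Fes1A, which exchanges nucleotides on HSP70, went from 652.9, 97.2 and 80.2 to 1697.4, 387.3 and 368.0 in WT. In pnp1-1 it read 253.5, 220.6 and 301.3 on +P and 249.1, 217.9 and 264.5 on -P, nearly level. The WT difference was 1.86 ± 0.16 (adjusted p = 0.149) and that of pnp1-1 was -0.08 ± 0.16. Hop3, which joins HSP70 to HSP90, differed by 1.83 ± 0.58 in WT, and Hsp70-2 by 0.99 ± 0.19. The first WT pair led both, with 3.67 for Hop3 and 1.56 for Hsp70-2. Hop1, Hop2, Fes1B, Fes1C and the chloroplast chaperonins Cpn60beta2, Cpn60beta3 and Cpn60beta4 differed by -0.33 to 0.31 in WT. Within the list, 3 members were thus at least 2-fold higher in WT, ROF2, Fes1A and Hop3. AT5G51440 had a pattern like that of Fes1A, with WT pairs at 2.21, 2.72 and 2.73 and pnp1-1 pairs at -0.44, 0.07 and 0.29. After 1 week ROF2, Fes1A and AT5G51440 differed by -0.18, 0.20 and -0.14, none of them past the test.

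**Figure D4:**
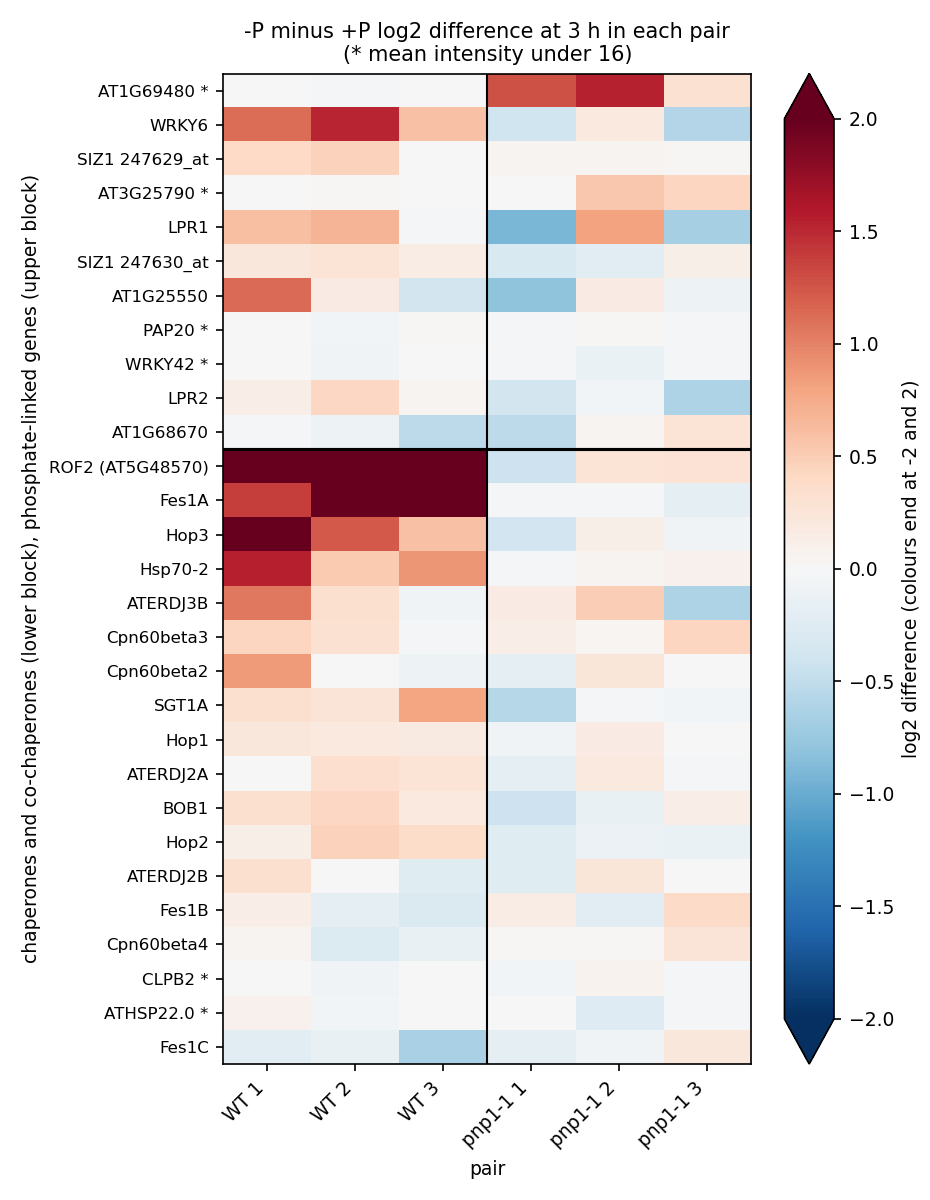
Log2 difference between -P and +P at 3 h in each of the 6 pairs (columns) for 11 phosphate-linked probe sets (upper block) and 18 chaperone and co-chaperone probe sets (lower block), with red for higher on -P. A star marks a mean intensity under 16, and colours end at -2 and 2. ROF2, Fes1A, Hop3 and Hsp70-2 are red in all 3 WT columns and pale in the pnp1-1 columns.

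By a rule made after the values were seen (a gene symbol, a mean of at least 16, all 3 WT pairs of 1 sign, 2-fold or more and an unadjusted p under 0.05), 27 probe sets were taken, 25 higher and 2 lower. Of the 27, 15 had the opposite sign in pnp1-1, and the share over all probe sets was not counted. UGT73B4, which adds glucose to phenolics and foreign compounds, read 55.2, 12.2 and 7.2 on +P and 383.3, 146.0 and 81.0 on -P in WT. In pnp1-1 it read 52.7, 210.6 and 219.2 on +P and 166.7, 258.6 and 45.9 on -P. The WT media did not overlap, while the third mutant pair went the other way by 2.26 on the log2 scale. The WT difference was 3.29 ± 0.72 (adjusted p = 0.285), with UGT73C1 at 3.02 ± 0.62 and UGT73B5 at 2.70 ± 0.48. With levels under 16 set to 16, since 2 of 3 WT arrays on +P were below it for both, UGT73B4 differed by 2.78 and UGT73C1 by 2.87. GSTU25, a glutathione transferase, read 6.8, 12.4 and 8.3 on +P and 158.8, 184.0 and 18.9 on -P in WT. All its +P arrays there were near background, and its difference was 3.21 ± 1.03 as measured and 2.36 with levels under 16 set to 16. AER, which reduces reactive carbonyls, differed by 1.01 ± 0.26, and GRX480, a glutaredoxin, by 1.76 ± 0.57. Of the 47 glycosyltransferase probe sets, 25 had a mean of at least 16. Of these 25, 5 were at least 2-fold higher in WT, against 2.22% of all probe sets of at least 16. The median of all 47 was -0.04. Among glutathione S-transferases of at least 16 it was 1 of 7 (median of all 13, -0.03), and among cytochrome P450 genes 0 of 11 (median of all 23, -0.05). For calcium and glutamate-receptor signalling genes it was 2 of 9 (median of all 15, 0.07). These families were drawn up after values were seen, so shares above 2.22% were partly built in and are given only as a description.

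Also in the set of 27 were the calmodulin-like CML38 (1.09) and CML41, the zinc finger repressor STZ (1.18) and PUB22, a ubiquitin ligase that damps immune signalling (1.35). GH3.3, which conjugates auxin to amino acids, differed by 1.22 and XTH18, a cell wall xyloglucan enzyme, by 2.54. CML41 read 5.9, 4.7 and 4.5 on +P and 83.9, 61.2 and 6.6 on -P in WT, so both arrays of pair 3 were near background. Its WT difference was 2.70 as measured and 1.44 with levels under 16 set to 16. The adjusted p of these genes in WT lay between 0.219 and 0.447, so none passed. SRC2, named for a cold-regulated soybean gene, had tight values, from 2263.1, 2444.1 and 2471.7 on +P to 5468.4, 4380.9 and 4336.7 on -P in WT. In pnp1-1 it read 2588.9, 2780.6 and 2694.2 against 3303.1, 2547.7 and 2761.0. Its WT difference was 0.98 ± 0.13 (adjusted p = 0.209). The 2 named genes that were lower were SWEET4, a sugar transporter (-1.01), and HIS1-3, a drought-linked linker histone (-1.33).

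The smallest adjusted p in WT belonged to AT2G47880, which read 193.2, 280.6 and 398.0 on +P and 106.2, 154.6 and 227.8 on -P. Its pairs were apart by -0.86, -0.86 and -0.81 although the media overlapped, and the WT difference was -0.84 ± 0.04 (adjusted p = 0.0646; 0.00259 to 0.991 over the other settings). All pnp1-1 arrays read 4.3 to 4.5, at background, so the mutant gives no reading of its response. Their nearly constant values still enter the shared spread behind the WT SE and adjusted p.

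Of the 365 WT probe sets, 295 (80.8%) had the same sign at 1 week over both genotypes, against 54.0% of all probe sets of at least 16. Of the 27 named ones, 22 had the same sign. The other 5 were GH3.3 (-0.80 at 1 week), PUB22 (-0.25), ACT11 (-0.30), SWEET4 (0.92) and HIS1-3 (0.35), none of which passed the test at 1 week. Across the 13529 probe sets, the WT difference at 3 h and at 1 week had r = 0.34, that of pnp1-1 had r = 0.05, and the pool had r = 0.32. After 1 week UGT73B4 had risen by 2.33 ± 0.50 (adjusted p = 0.0229), UGT73B5 by 1.53 ± 0.31 (adjusted p = 0.0182), GRX480 by 2.11 ± 0.37 (adjusted p = 0.00999) and OCT5, a carnitine transporter family member, by 1.47 ± 0.21 (adjusted p = 0.00365). The response at 3 h and that at 1 week were not told apart by the test for any of these 4 genes, with adjusted p of 0.479 to 0.984.

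Most transcripts that responded at 1 week differed little at 3 h. After 1 week, 844 probe sets had risen (3.71%) and 765 had fallen (3.36%) over both genotypes. With no replicate block these counts were 579 and 280. Same-numbered arrays at 1 week deviated together in some pairs only, with correlations of -0.518 to 0.785. At 3 h the risers had a median difference of 0.08 and the fallers of -0.02, against -0.01 for all probe sets. The 95% interval at 3 h lay within 2-fold for 78.1% of the risers and 96.5% of the fallers, against 94.9% of all probe sets. In WT the risers stood at a median of 0.12 and in pnp1-1 at 0.00. Of the 162 probe sets that rose at least 4-fold, with a median of 2.79, the median at 3 h was 0.16. Of the 162, 15 were already at least 2-fold higher, a larger share than the 0.451% of all probe sets of at least 16. The 15 were counted without that limit on intensity. For 79 of the 162 the 3 h interval lay within 2-fold in either direction. Without WT replicate 2 or pnp1-1 replicate 3 at 1 week, the total of 1609 calls was 958 or 761.

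The difference between the times was tested directly, with -P minus +P taken within each time. It passed for 331 probe sets, of which 93 (0.409%) were higher at 3 h than at 1 week and 238 (1.05%) lower. The count was 165, 170 or 191 without WT pair 1, WT pair 3 or pnp1-1 pair 2 at 3 h. It was 735, 219 or 199 without WT pair 1, WT pair 2 or pnp1-1 pair 3 at 1 week. Among the 162 strong risers, 101 were called. These were picked on the same 1 week values that the time difference subtracts, so a high count was built in.

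AT5G20790 had the largest time difference. At 1 week it read 12.4 to 39.7 on +P and 2989 to 9168 on -P, where it rose by 8.23 ± 0.63 (SE, n = 6 pairs; adjusted p = 8.15e-05). At 3 h it read 933.3, 45.9 and 54.3 on +P and 509.1, 180.4 and 160.4 on -P in WT, and 53.5, 131.0 and 714.6 against 763.5, 139.1 and 207.7 in pnp1-1. Single arrays were high on either medium, and the 3 h difference was 0.80. The 2 times differed by -7.43 ± 0.89 (adjusted p = 0.00331).

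AT1G08310 rose at 1 week by 7.30 ± 0.38 (adjusted p = 5.01e-06), from 6.0 to 12.9 on +P to 1060 to 1633 on -P. All 6 arrays on +P were under 16, and with such levels set to 16 the rise was 6.33, which is a lower bound. At 3 h its arrays lay between 4.8 and 37.0 on +P and between 7.4 and 32.3 on -P, and the times differed by -6.80 ± 0.53 (adjusted p = 0.000233). The floor of 16 made this -6.26. PRX52, peroxidase 52, differed between times by -7.21 ± 1.03 (adjusted p = 0.00935). All 3 h arrays of PRX52 read 3.9 to 4.2 except pnp1-1 +P replicate 2, at 301.5, and without that pair the time difference was -6.18. With levels under 16 set to 16 it was -6.05. In the other direction AT1G73600 fell at 1 week by 3.84 ± 0.28 (adjusted p = 5.61e-05) and differed by 0.00 at 3 h, with WT at 2422 to 2944 on +P and 2454 to 4017 on -P. CCS, the copper chaperone of superoxide dismutase, fell by 1.22 ± 0.19 at 1 week (adjusted p = 0.00503) and differed by 0.23 at 3 h. The call of CCS in the time test (adjusted p = 0.0322) was lost in 9 of 12 fits without 1 pair, among them that without WT pair 1 at 3 h (adjusted p = 0.0845).

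**Figure D5:**
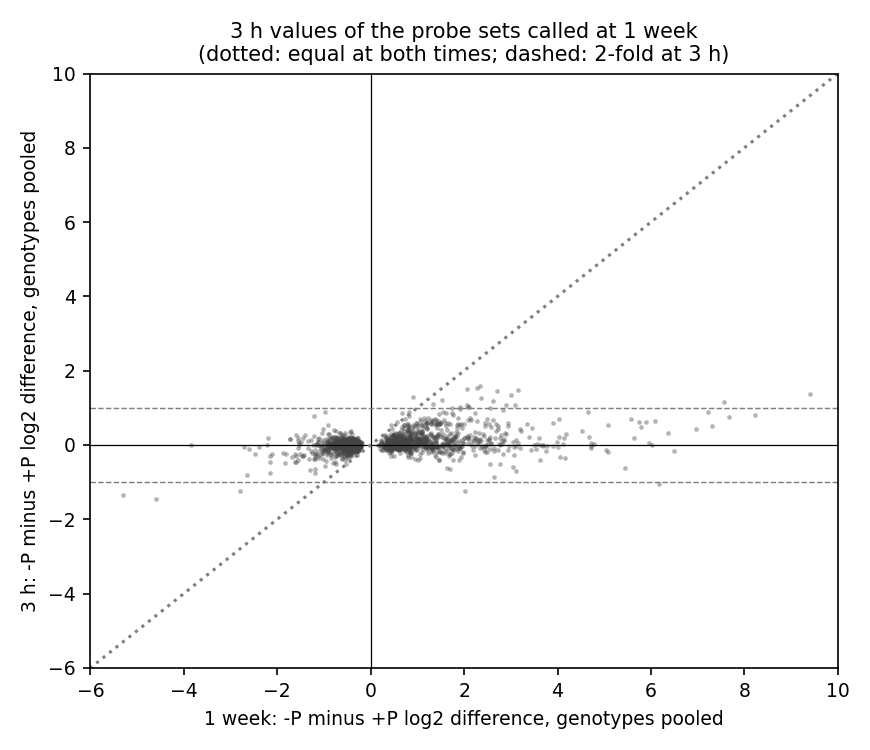
For the 1609 probe sets called at 1 week over both genotypes, the -P minus +P log2 difference at 1 week (horizontal axis) and at 3 h (vertical axis). Dashed lines mark 2-fold at 3 h and the dotted line equal differences, and nearly all points lie along the horizontal axis, between the dashed lines.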

How the data were processed

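Whole-shoot RNA was hybridised to 24 Affymetrix arrays, 3 per genotype, medium and time. The deposited table holds 1 intensity per probe set and array on a linear scale, normalized by the authors; GCRMA, affy and limma are named per the submitters' processing notes, without versions or order. Which arrays were normalized together, slides and scan dates are not stated in the labels or the file. Values at 3 h carry 1 decimal, and those under 16 have no dependable order.

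Log2 of the intensity was taken here, 64 control probe sets were removed, and 22746 were fitted in limma 3.58.1 (R 4.3.3) with the pair of genotype and replicate number as a block; calls had a Benjamini-Hochberg adjusted p under 0.05 over all probe sets. Genotype fits shared 1 estimate of spread. The time difference used all 24 arrays in 12 pairs. The pairing rests on the data: same-numbered 3 h arrays deviated together, with correlations of 0.671, 0.466 and 0.687 in WT and 0.230, 0.433 and 0.422 in pnp1-1. At 1 week they ranged from -0.518 to 0.785. The script was tested on simulated data.

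The platform annotation gave 13513 probe sets 1 gene, 503 several and 8730 none; 13436 matched a RefSeq gene. Named genes were the 12 of lowest p in each direction among those with 1 gene, a mean of at least 16 and all 6 pairs of 1 sign, and the lowest p of each list. Others, including the WT and time-difference genes outside that rule and the gene families, were chosen after values were seen. The members and lists were chosen with earlier results of these data known. Alternatives changed the block, prior, array weights, normalization, low values, probe sets per gene and replicates.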

Additional observations from a re-analysis of the deposited data

Results flagged for a closer look

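For 7 of 78 genes, 1 of the 6 pair differences at 3 h stood apart from the others by Dixon's ratio of gap to range, at a critical value that chance exceeds in about 5% of groups. In WT pair 2, AT2G41950 (ratio 0.649) differed by 0.24 against 0.16 to 0.19 in the other pairs, AT1G15830 (ratio 0.845) by -1.30 against -0.53 to -0.39, and GAT1_2.1 (ratio 0.675) by 4.53 against -0.41 to 1.19. The last is 1 of 2 probe sets of GAT1_2.1, and the other gave 1.67 in that pair and 1.55 in WT pair 1. In WT pair 1, AT1G53540 (ratio 0.781) differed by 5.03 against -0.35 to 0.83. In pnp1-1 pair 1, RCA (ratio 0.629) differed by -0.10 against -0.04 to -0.01. In pnp1-1 pair 2, PRX52 (ratio 0.982) differed by -6.17 against -0.07 to 0.04. In pnp1-1 pair 3, SUFE2 (ratio 0.630), which activates cysteine desulfurases, differed by -1.59 against 1.02 to 2.56.

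The phosphate response differed between 3 h and 1 week in limma's test for 6 named genes. The 3 h minus 1 week difference was -7.43 for AT5G20790, -7.21 for PRX52, -6.80 for AT1G08310, 3.84 for AT1G73600, 2.22 for AT3G19550 and 1.45 for CCS. AT3G19550 (adjusted p = 0.0398) had a mean intensity under 16 at 3 h and lost its call in 9 of 12 fits without 1 pair, with adjusted p of 0.0304 to 0.108 over the 12, among them 0.108 without WT pair 1 at 3 h.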

How the results depend on the processing

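The pooled count of 0 held in all 16 alternatives. In WT the count of 0 became 6 with the replicate block as a random effect, 9 with a trended and robust prior, 1 each with array weights, quantile normalization and 1 probe set per gene, 7 with median centring, 3 with levels under 16 set to 16, and 6 with probe sets under 16 left out. In pnp1-1 it became 1 with the random block and 2 with the floor of 16, and for the genotype difference 1 and 3. With no replicate block all 4 counts were 0, with 329, 731, 278 and 551 probe sets at an unadjusted p under 0.05 in the pool, WT, pnp1-1 and the genotype difference. At 1 week 859 probe sets were called with no replicate block, against 1609. The time difference was called for 195 probe sets with no replicate block, and for 165 to 735 without single pairs. In pnp1-1 the 41 probe sets at least 2-fold apart became 113 with array weights and 69 to 223 without single pairs. The 2-fold and time leave-outs were chosen after seeing the data. PYK10 (-0.03) turned sign without WT replicate 1 (0.0144), 2 (0.0385) or 3 (0.0381) or pnp1-1 replicate 2 (0.0151), and ranged from -0.193 to 0.0385 over single pairs left out. CCS lost its time call with no replicate block (adjusted p = 0.321) and with the floor (adjusted p = 0.0603), and AT3G19550 with the floor (1.49, adjusted p = 0.136). The cause of these shifts was not tested. Among probe sets of at least 16, intervals were widest between 16 and 64, and those under 16 had narrow intervals at levels near background.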

Other observations

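Of 69 probe sets of the plastid genome, 52 were higher on -P in the pool, against 9319 of all 22746. Their median was 0.10 against -0.01 for all probe sets, and 0 were called (4 at an unadjusted p under 0.05). In pnp1-1 59 of the 69 were higher with a median of 0.16, against 10232 of all 22746. In WT 40 of the 69 were higher with a median of 0.03, against 8489 of all. The pairs did not share a direction: the medians were -0.13, 0.22 and -0.02 in WT and -0.03, 0.17 and 0.40 in pnp1-1, so 3 of 6 were below 0. Mitochondrial transcripts had a median of 0.00, with 11 of 23 higher. Nuclear photosynthesis genes also had a median of 0.00, with 5 of 11 higher. Probe sets of 1 genome share arrays and are not independent, and these groups were drawn up after values were seen.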
